A study of Mus musculus with 6 samples.

Results

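Alveolar macrophages are the resident phagocytes of the air spaces, and the genes studied here are 10 that mark their identity in the mouse, which are Chil3, Marco, Pparg, Plet1, Mrc1, Slc7a2, Cd9, Ear2, Car4 and Fabp1. A gene was included through every probe set that the platform annotation ties to it and to no other gene. In this way 9 of the 10 genes were found, by 10 probe sets among 24173, and they formed 9 of the 16537 genes tested. Ear2, an eosinophil-associated ribonuclease that is also abundant in these macrophages, had no such probe set and was not analysed here. Cd9 had 2 probe sets, of which the brighter stood for the gene.

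The arrays measured whole lung after naphthalene, which is toxic once club cells of the airway have metabolised it and so depletes those cells. The 3 arrays labelled Falcor-null came from lungs null for Falcor, a long non-coding RNA gene beside Foxa2, at 31, 32 and 33 days after naphthalene by their labels. The 3 wild-type arrays carried 28, 29 and 30 days. All 6 shared naphthalene and the mixed strain label CD1_C57Bl6_mix, and day and genotype cannot be told apart as the labels stand. The labels used here give no age, state neither which part of Falcor was removed nor whether each array is a separate animal, so that p-values cover no more than array-to-array spread, possibly technical.

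These macrophages settle in the lung around birth and maintain themselves there with little input from blood monocytes. Granulocyte-macrophage colony-stimulating factor (GM-CSF, gene Csf2), made largely by the alveolar epithelium, and transforming growth factor beta switch on Pparg, the nuclear receptor that sets their lipid-handling programme. Their best known work in the lung is to take up and break down spent surfactant and to clear inhaled particles and microbes.

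Each array gave log2 signals after RMA, a procedure that corrects background, makes arrays alike in distribution and summarises the probes of a set, with medians between 6.69 and 6.74. The array number limits the precision. The lung surfactant gene Sftpc read 13.59 to 13.60 on the arrays labelled Falcor-null and 13.59 to 13.61 on the wild-type arrays, so that the marker of lung tissue was present on each. The probe set of Falcor itself (9030622O22Rik) went against the label, with 6.82, 6.34 and 6.32 on the arrays labelled Falcor-null, against 4.69, 5.01 and 5.45 on the wild-type arrays (limma adjusted p 0.0423). That call held without wild type replicate 3 (adjusted p 0.0379) and was lost when any other single array was left out, with adjusted p-values up to 0.143. The sources used here do not say whether this probe set falls inside the deleted stretch, and every direction below rests on the labels. Single arrays stood apart in 2 gene lists. In cell cycle genes, Falcor-null replicate 2 was at 0.80 on a scale where each gene is centred on its mean over the 6 arrays, while the other 5 arrays lay between -0.41 and 0.20. In neutrophil genes, wild type replicate 3 was at 0.95, while the others lay between -0.56 and 0.10.

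All 9 measured identity genes had a lower mean on the arrays labelled Falcor-null, and none of them passed an adjusted p of 0.05 in limma over all genes, a mark that 0.556% of all genes reached (0.46% lower and 0.0968% higher). At an adjusted p under 0.10, Chil3 and Pparg were called, 2 of 9, beside 1.69% of all genes in either direction and 1.25% as lower. At an unadjusted p under 0.05, 5 of the 9 were lower and none higher, beside 7.65% of all genes lower and 6.11% higher. These 5, Chil3, Pparg, Plet1, Slc7a2 and Mrc1, were also the ones whose groups did not overlap, which was so in the lower direction for 10.6% of all genes and in the higher direction for 8.96%. The median log2 difference of the 9 genes was -0.53, beside 0.00 over all genes tested, and 49.2% of all genes were lower. The median was -0.50 without Falcor-null replicate 2 and -0.54 without wild type replicate 3, the arrays that stood apart in the cell cycle and neutrophil lists. The genes had been chosen with earlier results of these data known, so that these counts describe them and are not an independent test. Whole lung was measured. Fewer macrophages, less of each RNA per macrophage and less RNA from other cells that make some of these genes cannot be told apart.

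**Figure D1:**
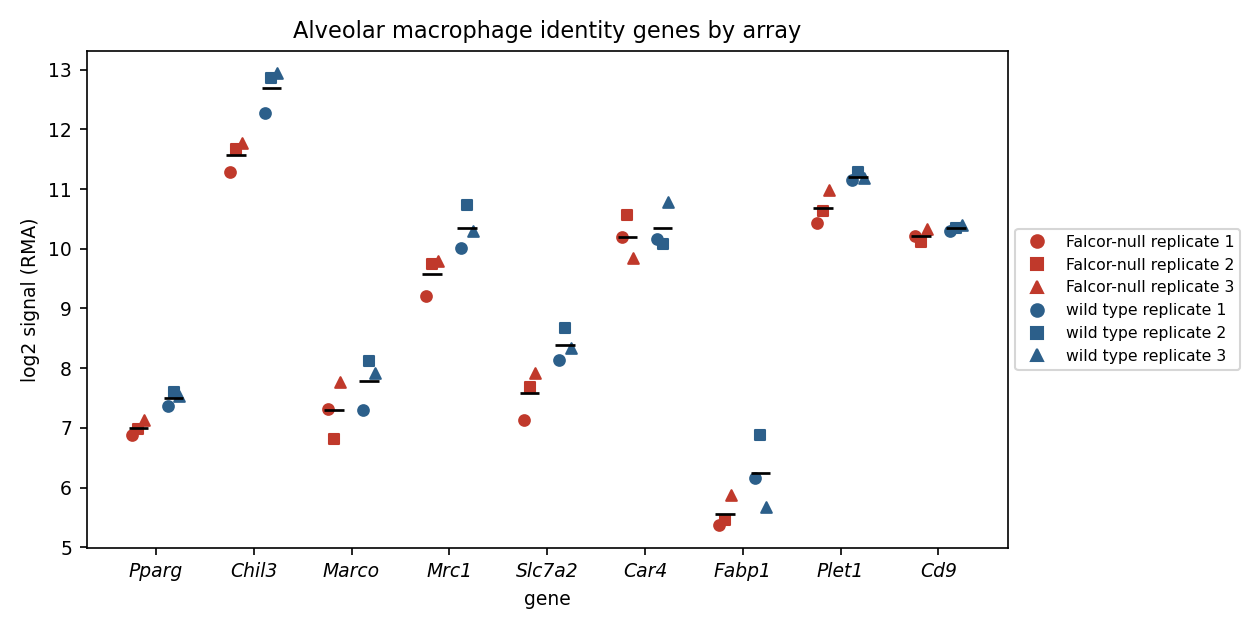
Log2 signal (vertical axis) of the 9 measured identity genes (horizontal axis) on each array, arrays labelled Falcor-null in red left of the wild-type arrays in blue, with the bar at the mean of 3. Chil3, Pparg, Plet1, Mrc1 and Slc7a2 have every red point below every blue point, while Marco, Fabp1, Cd9 and Car4 overlap.

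Pparg, the regulator, was read at 6.88, 6.98 and 7.12 on the arrays labelled Falcor-null, against 7.37, 7.59 and 7.53 on the wild-type arrays. The 3 arrays labelled Falcor-null all lay lower, and the spread within each group was small (SD 0.12 in lung labelled Falcor-null and 0.11 in wild type, n = 3 each). The log2 difference was -0.50 (SE 0.10, 95% interval -0.73 to -0.28), or 1.42-fold lower, with a limma adjusted p of 0.0854.

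Chil3 encodes a secreted chitinase-like protein that mouse alveolar macrophages make in bulk and that can crystallise in inflamed lungs. Its log2 signal was 11.28, 11.67 and 11.77 on the arrays labelled Falcor-null, against 12.27, 12.87 and 12.94 on the wild-type arrays. It had the largest difference of the 9 genes, -1.12 (SE 0.20, 95% interval -1.59 to -0.65), or 2.17-fold lower, with a limma adjusted p of 0.0748. Without wild type replicate 1, the lowest of its group, the difference was -1.33 and passed (adjusted p 0.0413). Without any other single array it did not pass, with limma adjusted p-values from 0.110 to 0.197. Chil4, a close relative in sequence, had no probe set of its own among those used, and what it adds to this signal was not tested.

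Mrc1 and Marco are the phagocytic receptors of the group. Mrc1, the mannose receptor, which binds sugars on microbes and is also made by interstitial macrophages, read 9.21, 9.74 and 9.80 on the arrays labelled Falcor-null, against 10.02, 10.74 and 10.29 on the wild-type arrays. The highest array labelled Falcor-null stayed below the lowest wild-type array. The log2 difference was -0.76 (SE 0.22, adjusted p 0.190), or 1.70-fold lower. Marco, a class A scavenger receptor that binds bacteria and inhaled particles, read 7.31, 6.81 and 7.77 on the arrays labelled Falcor-null, against 7.30, 8.12 and 7.92 on the wild-type arrays. Here the groups overlapped, since wild type replicate 1 read as low as Falcor-null replicate 1. The difference of -0.48 (SE 0.28, adjusted p 0.506) was -0.24 without Falcor-null replicate 2 and -0.31 without wild type replicate 2.

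Slc7a2, a carrier of arginine and other cationic amino acids into the cell, read 7.12, 7.69 and 7.92 on the arrays labelled Falcor-null, against 8.13, 8.68 and 8.34 on the wild-type arrays. Its groups did not overlap, with the narrowest gap between Falcor-null replicate 3 and wild type replicate 1. The log2 difference of -0.81 (SE 0.22), or 1.75-fold lower, was the second largest of the 9 genes and had an adjusted p of 0.175.

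Plet1, a membrane-anchored protein of placenta and of several epithelia that also marks alveolar macrophages, read 10.43, 10.64 and 10.98 on the arrays labelled Falcor-null, against 11.15, 11.29 and 11.18 on the wild-type arrays. The wild-type arrays were close together (SD 0.07) and the arrays labelled Falcor-null were more spread (SD 0.28). The difference was -0.53 (SE 0.14, adjusted p 0.165), or 1.44-fold lower. A dim probe set that the annotation shares between Plet1 and Plet1os was not counted and differed by -0.08, with means of 4.85 on the arrays labelled Falcor-null and 4.93 on the wild-type arrays.

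Fabp1, a fatty acid binding protein best known from liver and gut, was the dimmest of the group. It read 5.37, 5.46 and 5.87 on the arrays labelled Falcor-null, against 6.17, 6.88 and 5.67 on the wild-type arrays. Wild type replicate 3 lay below Falcor-null replicate 3, so that the groups overlapped, and the difference of -0.67 (SE 0.29, adjusted p 0.367) was -0.35 without wild type replicate 2. Liver transcripts were lower on the same arrays: of 9 measured liver and gut genes 7 were lower, beside 49.2% of all genes. The plasma protein genes Alb (-1.52, limma adjusted p 0.018) and Ttr (-0.63, adjusted p 0.0371) passed as lower, beside 0.46% of all genes. With 1 array left out, Alb kept its call without Falcor-null replicate 1 or 2 or wild type replicate 1, and lost it without Falcor-null replicate 3 (adjusted p 0.0541) or wild type replicate 2 (0.0822) or 3 (0.052), while Ttr lost it without any single array (adjusted p 0.0794 to 0.125). Their part in the Fabp1 values was not tested.

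Car4 and Cd9 had the smallest differences. Car4, a membrane-bound carbonic anhydrase that is also a known marker of a class of lung capillary cells, read 10.20, 10.57 and 9.84 on the arrays labelled Falcor-null, against 10.17, 10.08 and 10.78 on the wild-type arrays. The groups were interleaved, and the difference of -0.14 (SE 0.23, 95% interval -0.69 to 0.41, adjusted p 0.847) was 0.04 without Falcor-null replicate 3 and 0.08 without wild type replicate 3. Its interval takes in both 0 and the difference of Pparg.

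Cd9, a tetraspanin found on many lung cell types, read 10.21, 10.11 and 10.33 on the arrays labelled Falcor-null, against 10.30, 10.34 and 10.40 on the wild-type arrays. Falcor-null replicate 3 lay within the wild-type range. The difference of -0.14 (SE 0.08, 95% interval -0.33 to 0.06, adjusted p 0.533) was -0.08 without Falcor-null replicate 2. The second Cd9 probe set, which was dim, read 5.39, 5.32 and 5.21 on the arrays labelled Falcor-null, against 4.98, 5.54 and 5.14 on the wild-type arrays, and differed by 0.09 (adjusted p 0.853 over the used probe sets).

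The 9 genes also shared much of their order among arrays of the same label. Falcor-null replicate 1 was the lowest of its group for 6 of them, Chil3, Pparg, Plet1, Mrc1, Slc7a2 and Fabp1. Falcor-null replicate 3 was the highest of its group for 8, all but Car4. Among the wild-type arrays, replicate 1 was the lowest for 7, all but Car4 and Fabp1, and replicate 2 the highest for 6. Averaged over the 9 genes, each centred on its own mean, the level was -0.47, -0.29 and -0.10 on the arrays labelled Falcor-null, against 0.07, 0.48 and 0.31 on the wild-type arrays. The distance within a group was thus larger than the gap of the closest arrays between groups, Falcor-null replicate 3 and wild type replicate 1.

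Pparg followed this average profile most closely, with a root mean square difference of 0.08 on the log2 scale over the 6 arrays, and Plet1 was next with 0.10. Car4 was farthest from it at 0.44, followed by Fabp1 at 0.32 and Chil3 at 0.30. Each identity gene is part of this average, and the measure takes in the size of a difference as well as its pattern. Outside the group, 5 genes were nearest to the profile among 1777 genes that were brighter than the median gene and varied enough. They were Plek (0.04), a signalling protein of blood cells, Adgre1 (0.04), which encodes a classic surface antigen of mouse macrophages, Pik3ap1 (0.07), an adaptor of phosphoinositide 3-kinase in immune cells, Cfp (0.07), which encodes the complement factor properdin, and Nfam1 (0.07), an immune receptor. Adgre1 read 7.27, 7.52 and 7.66 on the arrays labelled Falcor-null, against 7.77, 8.20 and 8.13 on the wild-type arrays. Its difference was -0.55 (adjusted p 0.164), and those of the other 4 lay between -0.49 (Pik3ap1) and -0.62 (Cfp), with adjusted p-values between 0.110 and 0.241. The 5 genes were picked for their match to the profile, so that these differences and p-values follow from the choice.

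Upstream sequence is shown for genes whose groups did not overlap, so that the letters before their starts can be set side by side. The RefSeq promoter table for GRCm38.p6 held 8 of the 9 genes, in 10 windows because Pparg has 3 starts in it, and had none for Slc7a2. The 250 bases before each start were searched on both strands for TTNNGNAA, a relaxed form of the C/EBP site, for GAGGAAGT, a strong form of the site of PU.1, for the nuclear receptor core site AGGTCA, for that site repeated directly after any single base, which Pparg binds with its partner RXR, and for the E-box CACGTG, which Bhlhe40 and Bhlhe41 bind. Capitals mark a match, and neighbouring C/EBP matches can overlap. The windows are chr3:106167565-106167814 on the minus strand for Chil3, chr2:14229164-14229413 on the plus strand for Mrc1, chr9:50494275-50494524 on the plus strand for Plet1 and chr6:115421816-115422065 on the plus strand for the most downstream of the 3 starts of Pparg.
Chil3 promoter: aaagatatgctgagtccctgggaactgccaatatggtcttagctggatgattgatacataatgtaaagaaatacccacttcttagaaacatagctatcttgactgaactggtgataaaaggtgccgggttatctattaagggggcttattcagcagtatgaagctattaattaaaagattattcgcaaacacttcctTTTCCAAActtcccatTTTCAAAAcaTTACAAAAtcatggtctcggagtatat
Mrc1 promoter: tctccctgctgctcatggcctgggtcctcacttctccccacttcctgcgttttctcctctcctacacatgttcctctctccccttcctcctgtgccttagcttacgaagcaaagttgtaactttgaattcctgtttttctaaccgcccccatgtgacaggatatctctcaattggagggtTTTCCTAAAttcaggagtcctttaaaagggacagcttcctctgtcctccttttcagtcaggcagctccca
Plet1 promoter: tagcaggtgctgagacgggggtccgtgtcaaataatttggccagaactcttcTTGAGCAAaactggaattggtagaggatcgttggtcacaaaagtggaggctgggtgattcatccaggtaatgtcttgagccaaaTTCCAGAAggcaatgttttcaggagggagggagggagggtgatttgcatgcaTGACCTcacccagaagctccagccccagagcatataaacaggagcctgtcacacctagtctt
Pparg promoter: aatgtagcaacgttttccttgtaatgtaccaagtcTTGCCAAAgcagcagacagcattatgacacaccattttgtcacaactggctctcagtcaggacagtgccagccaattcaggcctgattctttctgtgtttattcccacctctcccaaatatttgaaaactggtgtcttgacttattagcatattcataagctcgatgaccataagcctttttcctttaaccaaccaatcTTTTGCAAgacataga
The relaxed C/EBP letters stood in 7 of the 10 windows, and 36.8% of all 32851 promoter windows hold them. Chil3 carried 3 such matches between 53 and 20 bases before its start. The core site AGGTCA was found for Plet1, Fabp1 and Pparg, at its other 2 starts, while 14.0% of all windows hold it. Those 2 Pparg windows held no C/EBP letters, and which start is used in these lungs was not measured. PU.1's letters (2.44% of all windows), the direct repeat (0.0335%) and the E-box (6.02%) were in none of the 10 windows, which says only that these letters are not there. No binding was measured, and these matches are a description of the sequence.

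Other genes of the same cell type had the same sign. Of 17 further alveolar macrophage genes measured, 16 were lower and 1 higher on the arrays labelled Falcor-null, with a median log2 difference of -0.72, beside 0.00 over all genes. None passed over all genes in limma, and 8 were lower at an unadjusted p under 0.05, beside 7.65% of all genes. Ctsk, a lysosomal protease, read 7.02, 6.99 and 7.87 on the arrays labelled Falcor-null, against 8.14, 9.20 and 8.61 on the wild-type arrays, a difference of -1.35 (SE 0.32, adjusted p 0.123). Itgax, which encodes the integrin CD11c, differed by -1.12 (adjusted p 0.181), the chemokine gene Ccl6 by -0.81 (adjusted p 0.202) and Olr1, a receptor for oxidised lipoprotein, by -0.88 (adjusted p 0.216). The single gene with a positive sign was Net1, at 0.01. Averaged over this list, Falcor-null replicate 3 (0.09) was above wild type replicate 1 (-0.03), so that the groups overlapped here.

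**Figure D2:**
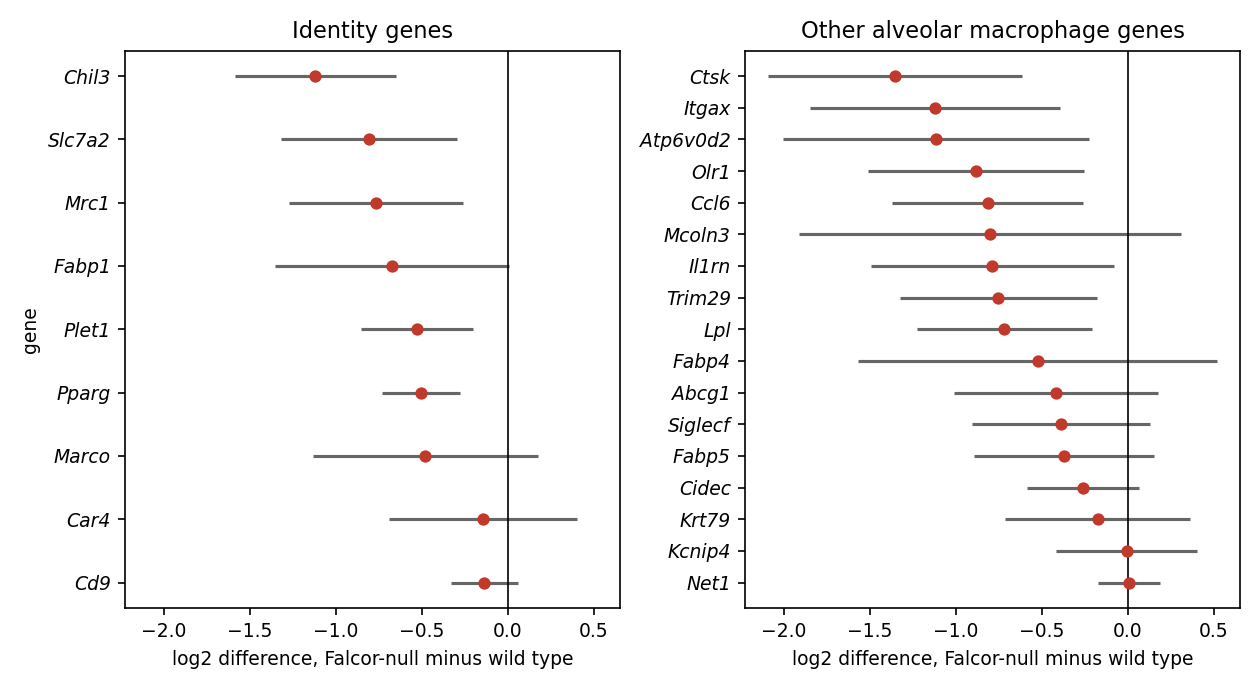
Log2 difference of arrays labelled Falcor-null minus wild type (horizontal axis, 3 arrays each) with its 95% interval from limma, for the identity genes (left) and the other alveolar macrophage genes (right), 1 gene per row. The intervals of Chil3, Slc7a2, Mrc1, Plet1 and Pparg lie below 0, and those of Car4 and Cd9 are centred near -0.14.

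Genes of the signals that form these cells fall into ligands, receptors and regulators. Csf2, the GM-CSF gene, read 5.09, 5.26 and 5.06 on the arrays labelled Falcor-null, against 5.72, 5.97 and 5.97 on the wild-type arrays. It was the single gene of 20 in this list to pass (difference -0.75, SE 0.10, limma adjusted p 0.0324), beside 0.46% of all genes passing as lower. The signal is dim, and the lowest mean of any gene was 4.34. Its call was kept without wild type replicate 1 (adjusted p 0.0413) and lost without any other array, with adjusted p-values of 0.124, 0.0777 and 0.0853 without Falcor-null replicates 1, 2 and 3 and of 0.115 and 0.111 without wild type replicates 2 and 3.

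The GM-CSF receptor genes Csf2ra (-0.51, adjusted p 0.253), Csf2rb (-0.55, adjusted p 0.445) and Csf2rb2 (-1.01, adjusted p 0.15) were lower without passing. Spi1, which encodes PU.1, the transcription factor that all macrophages need, read 7.20, 7.24 and 7.42 on the arrays labelled Falcor-null, against 7.71, 7.96 and 7.95 on the wild-type arrays, a difference of -0.59 with an adjusted p of 0.0734. Bhlhe41, a regulator of alveolar macrophage self-renewal, differed by -0.70 (adjusted p 0.228). For transforming growth factor beta, the ligand gene Tgfb1 (-0.16), the receptor genes Tgfbr1 (-0.15) and Tgfbr2 (0.07) and the activating integrin subunit genes Itgav (0.02) and Itgb6 (0.10) all had adjusted p-values above that of Csf2rb, from 0.548 to 0.929. In the whole list 14 of 20 genes were lower, with a median of -0.15.

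Lipid-handling genes under Pparg had a median nearer 0 than the identity genes, a difference that was not tested. Some of them, Lpl and Fabp4 included, are also counted among the further alveolar macrophage genes, so that the 2 counts are not separate. Of 15 measured, 13 were lower and 2 higher, none passed in limma, and the median was -0.29. At an unadjusted p under 0.05, 3 were lower, beside 7.65% of all genes. Lpl, the lipase that frees fatty acids from lipoproteins, differed by -0.72 (adjusted p 0.217) and Plin2, which coats lipid droplets, by -0.57 (adjusted p 0.275). The desaturase gene Scd1 differed by -0.24 (adjusted p 0.240). For these 3 genes the groups did not overlap, which was so in the lower direction for 10.6% of all genes. Lipa, the lysosomal lipase, differed by -0.39 (adjusted p 0.445). Fabp4, a textbook target, read 6.42, 7.23 and 8.29 on the arrays labelled Falcor-null, against 7.42, 8.31 and 7.78 on the wild-type arrays, with a wide spread in the first group and a difference of -0.52 (SE 0.45, adjusted p 0.667).

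Relatives of the identity genes were set beside them family by family. In the chitinase-like family Chil3 differed by -1.12, while the other 5 measured genes lay between -0.24 (Ctbs) and 0.11 (Chia1). Among the nuclear receptors, Ppara (-0.14, adjusted p 0.683), Ppard (0.06, adjusted p 0.747) and the partner Rxra (0.06, adjusted p 0.789) stood beside Pparg at -0.50. Whether the members of a family differ from one another in their response was not tested.

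Slc7a2 had close company in its list of SLC7 carriers and arginine enzymes. Slc7a11, the cystine and glutamate exchanger, differed by -1.51 (adjusted p 0.0748), the neutral amino acid carrier genes Slc7a8 by -1.26 (adjusted p 0.0796) and Slc7a5 by -0.83 (adjusted p 0.0793), and Arg2, the mitochondrial arginase, by -0.91 (adjusted p 0.0882). Their groups did not overlap, which was so in the lower direction for 10.6% of all genes. The Slc7a11 mean of 4.56 on the arrays labelled Falcor-null, against 6.07 on the wild-type arrays, lay close to the lowest mean of any gene (4.34), so that the size of its difference rests on a very dim signal. Arg1, the cytosolic arginase, was at 0.03 and the ubiquitous arginine carrier gene Slc7a1 at -0.18 (adjusted p 0.580).

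The receptors were divided. Besides Mrc1, the beta-glucan receptor gene Clec7a (-1.01, adjusted p 0.13), the class A scavenger receptor gene Msr1 (-0.74, adjusted p 0.199) and Ly75 (-0.45, adjusted p 0.237) were lower with groups that did not overlap. Over all genes, 10.6% were lower without overlap. Mrc2, the mannose receptor relative of fibroblasts, was higher by 0.44 (adjusted p 0.176), and Cd163, of other macrophages, was at -0.05. Among 11 tetraspanins, the leukocyte gene Cd37 fell by 0.74 on the log2 scale (limma adjusted p 0.018) and was the single one to pass, beside 0.46% of all genes passing as lower. Its call held without wild type replicate 1 (adjusted p 0.0471) and was lost without any other array, with adjusted p-values up to 0.079. Cd53 (-0.95, adjusted p 0.0939) and the lysosomal Cd63 (-0.53, adjusted p 0.0956) were lower without passing, whereas Cd81 (0.19) and Cd151 (0.15) had the other sign. All 6 measured fatty acid binding protein genes were lower, from -0.67 (Fabp1) to -0.07 (Fabp3), and none passed. Fabp4 and Fabp5 of this family are also counted among the further alveolar macrophage genes. Of 12 carbonic anhydrase genes 4 were lower, Car4 among them, and none passed. Of the ribonuclease family of Ear2, Rnase6 was the 1 gene with a probe set of its own, at -0.52 (adjusted p 0.113).

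**Figure D3:**
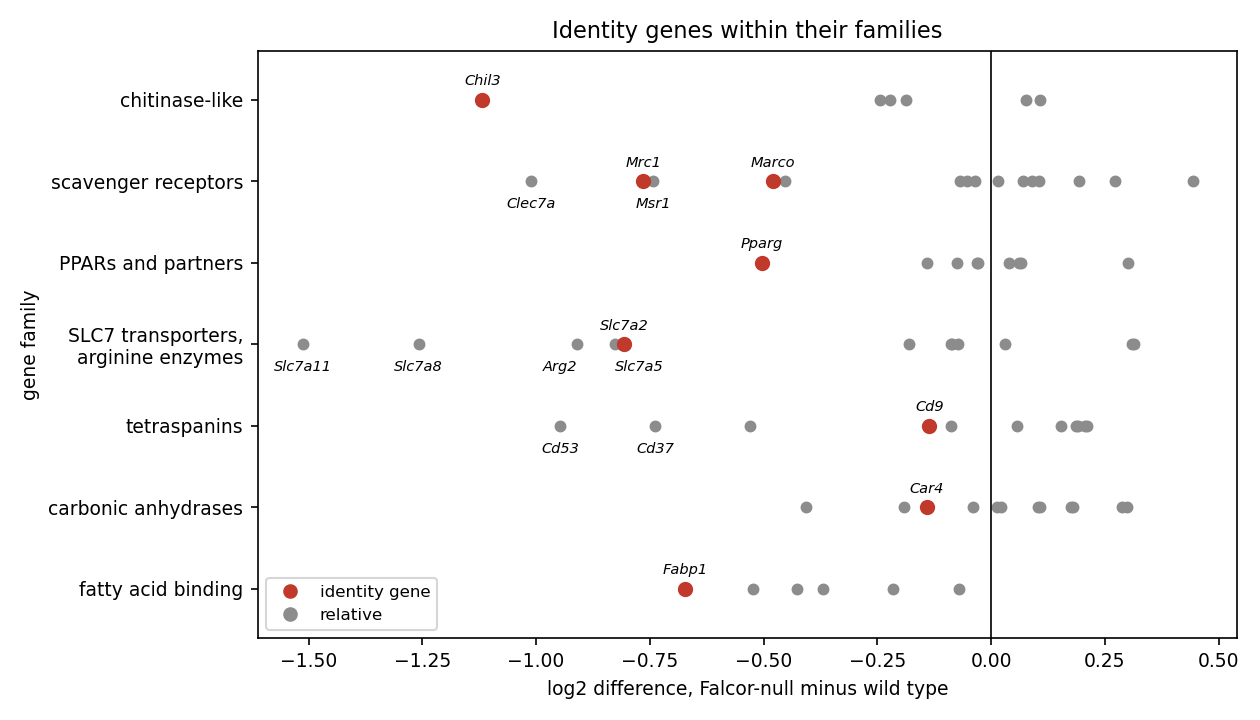
Log2 difference of arrays labelled Falcor-null minus wild type (horizontal axis) for each measured gene of 7 families (rows), identity genes in red and their relatives in grey. Chil3, Pparg and Fabp1 lie to the left of all their relatives, whereas Slc7a2 and Cd9 have relatives farther to the left.

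Most genes of a list of pan-macrophage and myeloid genes had a lower mean too. The list is not confined to macrophages, and whether it differs from the identity genes was not tested. Of 16 such genes, 15 were lower, beside 49.2% of all genes, with a median of -0.67, and none passed in limma. At an unadjusted p under 0.05, 12 were lower, beside 7.65% of all genes. Cd68, a lysosomal membrane protein of macrophages, read 9.46, 9.83 and 10.34 on the arrays labelled Falcor-null, against 10.77, 11.91 and 10.91 on the wild-type arrays (-1.32, adjusted p 0.146). The endotoxin coreceptor gene Cd14 was at -0.69 (adjusted p 0.0791) and Itgam, the CD11b gene, at -0.70 (adjusted p 0.0854). Csf1r, the receptor that most macrophages live by, was at 0.08 (adjusted p 0.726), and the lysozyme gene Lyz2 (-0.09) and Aif1 (-0.05) were also near 0. Averaged over this list, the arrays had the same order as for the identity genes, with -0.44, -0.30 and -0.09 on the arrays labelled Falcor-null, against 0.02, 0.51 and 0.30 on the wild-type arrays.

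Markers of interstitial macrophages and monocytes differed less. Of 17 measured, 12 were lower and 5 higher, with a median of -0.22 and none passing. The complement genes C1qa, C1qb and C1qc had differences between -0.48 and -0.50 (adjusted p 0.105 to 0.118), and Ms4a7 was at -0.70 (adjusted p 0.201). Lyve1, a marker of perivascular macrophages and of lymphatic vessels, was at 0.34 and the mouse marker Folr2 at 0.05. Whether this list differs from the alveolar one was not tested.

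Markers of most other leukocytes were lower on the same arrays. All 9 measured B and plasma cell genes were lower (median -0.75) and 4 of them passed. All 13 T and NK cell genes were lower (median -0.42) and 3 passed. Lower with none passing were 10 of 11 neutrophil genes (median -0.85) and 9 of 11 dendritic cell genes (median -0.35). Over all genes, 49.2% were lower and 0.46% passed as lower. The count of passing B and plasma cell genes was 2 without Falcor-null replicate 1, Falcor-null replicate 2 or wild type replicate 2, and that of T and NK cell genes was 0 without Falcor-null replicate 2 and 1 without wild type replicate 2. By array, the B and plasma cell list averaged between -0.59 and -0.44 on the arrays labelled Falcor-null and between 0.38 and 0.62 on the wild-type arrays. The T and NK cell list averaged between -0.37 and -0.25 on the arrays labelled Falcor-null and between 0.18 and 0.45 on the wild-type arrays. The neutrophil list ran from -0.56 to -0.22 on the arrays labelled Falcor-null and from 0.08 to 0.95 on the wild-type arrays. Genes of eosinophils, which also make Ear2, had 3 of 6 lower with a median of 0.00 and none passing. The part of these cells in the identity genes' values was not tested.

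Endothelial and epithelial genes were mostly higher on the arrays labelled Falcor-null. Of 16 endothelial genes, which bear on Car4, 14 were higher with a median of 0.14, and of 15 epithelial genes, which bear on Plet1 and Cd9, 13 were higher with a median of 0.12. None of either list passed. Over all genes, 49.2% were lower, with a median of 0.00. Cldn5, a tight junction gene of endothelium, was at 0.43 (adjusted p 0.101) and Apln, which the Car4-positive capillary cells express, at 0.56 (adjusted p 0.187). The epithelial marker Epcam was at 0.01. Of 8 housekeeping genes, 7 were lower, with a median of -0.05 and none passing. For 2 of the 8, Gapdh (-0.29, limma adjusted p 0.167) and Rplp0 (-0.19, adjusted p 0.320), the groups did not overlap. That was so in the lower direction for 10.6% of all genes.

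**Figure D4:**
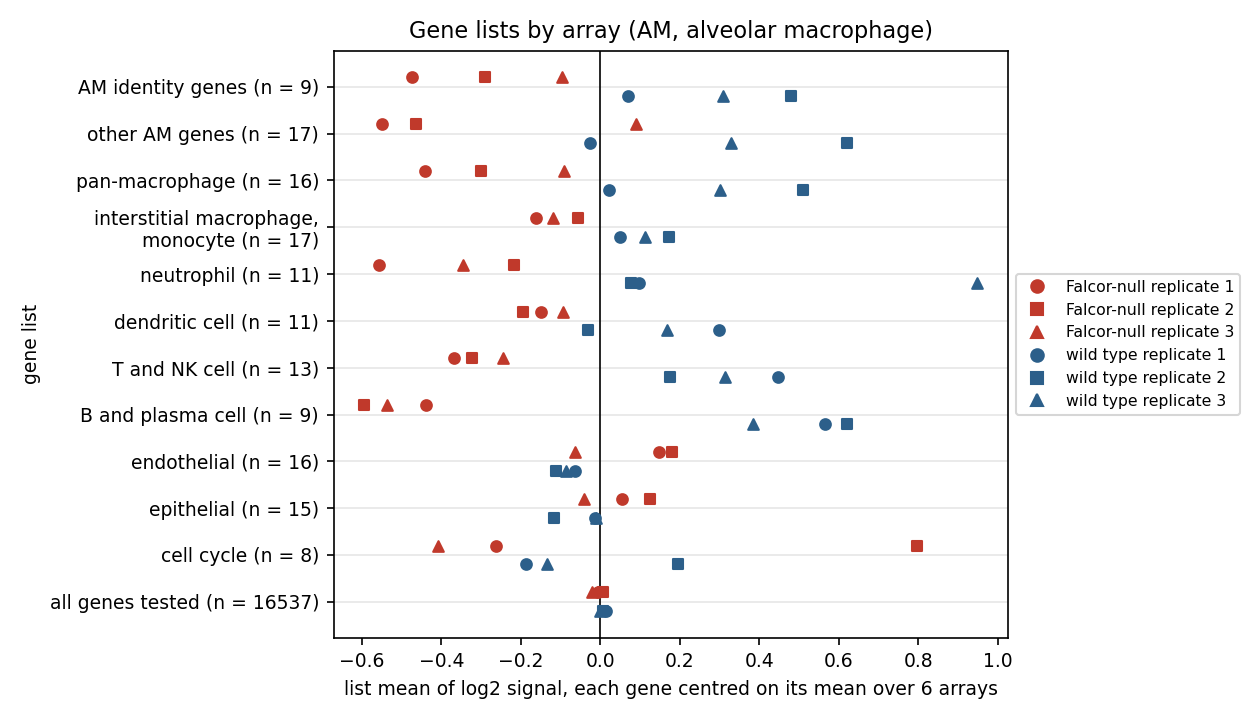
Mean log2 signal of each gene list (rows, n genes) on each array, every gene centred on its mean over the 6 arrays (horizontal axis), with arrays labelled Falcor-null in red above wild-type arrays in blue. The identity genes and the pan-macrophage, interstitial, neutrophil, dendritic cell and lymphocyte lists have all red points left of all blue points, the other alveolar macrophage genes overlap at Falcor-null replicate 3 and wild type replicate 1, and Falcor-null replicate 2 stands apart in the cell cycle list.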

How the data were processed

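Gene expression was measured on 6 single-channel arrays of whole mouse lung, 3 labelled Falcor-null and 3 wild type by their titles. The authors deposited 1 log2 value per probe set and array. Named in the submitters' processing notes are RMA, oligo and limma, with no version. RMA's quantile step removes a shift of most genes in 1 direction and compresses differences near both ends of the scale. Detection calls, a row filter and the annotation's build are not given in the sources used here.

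Used were the 17476 of 24173 probe sets annotated to a single symbol, leaving out 1308 with several and 5389 with none. Of those used, 17368 had a gene number in the RefSeq table of GRCm38.p6. The brightest probe set stood for each of the 740 genes with several. Promoter sequences and positions come from RefSeq, GRCm38.p6. Groups were compared, Falcor-null minus wild type, with lmFit and eBayes of limma 3.58.1 in R 4.3.3. Tests were two-sided, used genotype alone and were adjusted by Benjamini-Hochberg over 16537 genes, with 0.05 as the threshold. An exact permutation test of 3 arrays against 3 cannot go below 0.1.

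The identity genes, the 24 further lists and the rule for named genes were chosen with earlier results of these data known. Named were the identity genes and their relatives, up to 4 genes of smallest p per list and the 5 nearest profiles. Net1, Csf2ra, Csf2rb, Csf1r, Lyz2, Aif1, Tgfb1, Tgfbr1, Tgfbr2, Itgav, Itgb6, Lyve1, Folr2, Epcam and Sftpc were named after their values were seen. Alternatives were the replicate number as a block, 2 rescalings, trend and robust variance, array weights, a filter on dim probe sets, averaged probe sets, every probe set, a looser threshold and each array left out. Figures used matplotlib 3.10.9 in Python 3.11.15.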

Additional observations from a re-analysis of the deposited data

How the results depend on the processing

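Of 125 values of the 9 identity genes under 14 alternatives, 123 stayed lower on the arrays labelled Falcor-null, and 121 kept both their direction and their side of the 0.05 threshold. Chil3 and Car4 were the exceptions. The block, trend and robust variance, the dim filter and the test of every probe set leave a gene's difference as it was. Averaging probe sets does so too, except for Cd9. Under these settings those signs were fixed beforehand and only the adjusted p could move, so that the counts overstate stability. Chil3 passed with the replicate block (-1.12, adjusted p 0.0346), and ran from -1.33 to -0.97 with 1 array left out. Car4 ran from -0.33 to 0.08 with 1 array left out, positive without Falcor-null replicate 3 (0.04) or wild type replicate 3 (0.078). The count of identity genes passing was therefore 1 with the block, between 0 and 1 with 1 array left out, and 2 (Chil3 and Pparg) at an adjusted p under 0.10, a mark that 1.69% of all genes reached.

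The count over all genes, 92, was 32 with the replicate block, 156 with trend and robust variance, 171 of every probe set, 280 at an adjusted p under 0.10, and 18 to 89 with 1 array left out. Same-numbered arrays did not deviate together (correlations over genes of 0.02, 0.00 and -0.08 for replicates 1, 2 and 3). Differently numbered arrays gave correlations from -0.07 to 0.07. This check cannot establish that same-numbered arrays share only a number. The block ended each call of a single gene that was followed, with adjusted p-values of 0.078 for Csf2, 0.0625 for Cd37, 0.0671 for Ccl17, Irf4 and Alb, 0.0517 for Ccl22, 0.114 for Ttr and 0.119 for Falcor (9030622O22Rik). In fits chosen after seeing the data, Csf2 passed in 7 of 13 settings and Cd37 in 8 of 14. Dim signals, such as those of Slc7a11, Csf2 and Fabp1, are limited by an unknown background, and 3 arrays a group limit all intervals.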

Other observations

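Genes of the macrophage response to interleukins 4 and 13, a list in which Chil3 and Mrc1 are often counted, did not share one direction. Of 13 further genes of that response measured, 6 were lower and 7 higher on the arrays labelled Falcor-null, with a median log2 difference of 0.01. The 3 that passed in limma, all as lower, were Ccl22, Ccl17 and Irf4, which are also genes of activated dendritic cells. Over all genes, 0.46% passed as lower. Irf4, a transcription factor, read 5.67, 5.54 and 5.63 on the arrays labelled Falcor-null, against 6.55, 6.60 and 6.32 on the wild-type arrays (-0.87, adjusted p 0.018). Its call was kept in 2 of 6 fits with 1 array left out, those without wild type replicate 1 or 3, and its adjusted p reached 0.0777 without Falcor-null replicate 2. Ccl17 likewise passed in 2 of those 6 fits and Ccl22 in 5, all but the one without Falcor-null replicate 2 (adjusted p 0.0627).

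Retnla and Arg1 were singled out with their values known. Retnla, a secreted protein of the same response, read 11.13, 10.48 and 9.41 on the arrays labelled Falcor-null, against 10.22, 10.14 and 10.01 on the wild-type arrays. Its difference was 0.21 (adjusted p 0.857), with the arrays labelled Falcor-null on both sides of the wild-type range. Arg1, often read together with Chil3, was dim in both groups and differed by 0.03 (adjusted p 0.925).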
